A study of Mus musculus with 24 samples.

Results

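Microglia sorted from the hippocampus of APP/PS1 mice at 9 months of age were compared with those of the same genotype at 6 months. The comparison rests on 7 of the 24 libraries of the series: replicates 1, 2 and 3 of the transgenic (tg) group at 9 months against replicates 1 to 4 of the tg group at 6 months. Replicate 4 at 9 months was left out because its total, 6325 counts, is under 1000000, whereas the lowest total kept is 8147240. Of 36982 gene symbols, the 13615 with a level of at least 1 CPM (counts scaled to a common library size) in at least 3 of the 7 libraries were tested. All mice were male and carried the APP/PS1 transgenes of an amyloid model (in the standard line of this name, driven by the mouse prion promoter). The study's controls (wt, 4 libraries at each of these ages) are used below for one test, which asks whether the age difference itself differs by genotype. A wt library of 9 months carries the replicate name 2_4, which the labels do not explain. Cells were dissociated enzymatically at 4 °C and sorted as live, nucleated, CD11b-high, CD45-intermediate and CD49d-negative. The labels do not say that replicates are separate animals, and every p-value below reflects only the spread between libraries, which may be technical.

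Microglia are the resident macrophages of the brain and keep a stable, so-called homeostatic set of genes in the healthy tissue. Around amyloid plaques they take on a state named disease-associated microglia (DAM), in which sensing through the receptor TREM2 and its adaptor TYROBP is needed for the full programme of lipid, lysosomal and phagocytic genes. In amyloid models such as APP/PS1, plaques accumulate with age, and a part of the microglia also shows genes induced by type I interferon.

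The 7 libraries held 8147240 to 11041219 counts and 15709 to 17912 detected genes. Levels are given as CPM on library totals corrected by TMM factors (0.921 to 1.08), and 3 counts correspond to 0.274 to 0.343 CPM. Where ages are not named, the 6-month values come before the 9-month values, in order of replicate. The markers fixed for microglia were high in every library, with P2ry12 at 10400 to 21800 CPM and Tmem119 at 4480 to 5820 CPM. The leading 3 principal components carried 22.9%, 21.3% and 20.7% of the variance, each led by 1 or 2 libraries: replicate 3 at 6 months stood apart on the first and replicate 4 at 6 months on the third. On the second the 6-month libraries were at −74.3 to −6.7 and the 9-month libraries at 4.6 to 87.5, with replicate 2 at 6 months and replicate 3 at 9 months at the ends and the other 5 close to 0. Some results are also given without replicate 3 at 9 months.

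Many genes of the later DAM stage were at higher levels in all 9-month libraries. Among them Lpl, Cst7 and Clec7a had the smallest p-values, at 2.42 to 3.14 times their mean 6-month level, and some others had larger ratios, such as Igf1 (3.67). No single gene passed the edgeR quasi-likelihood test after Benjamini-Hochberg adjustment over 13615 genes (0% called, smallest adjusted p = 0.11), with a biological coefficient of variation of 56.3%. At an unadjusted p under 0.05, 428 genes were higher (3.14%) and 348 lower (2.56%), 776 in all (5.7%) where 681 would be reached if no gene differed. DESeq2 on the same counts called 50 genes higher (0.367%) and 25 lower (0.184%), and limma-voom with quality weights called 1, Lpl (0.00734%). As a description that needs no model, a gene is said not to overlap where all 3 libraries of 9 months lie above, or below, all 4 libraries of 6 months. This held for 588 genes above (4.32%) and 564 below (4.14%), and the list counts that follow stand beside those shares. Of the 75 genes called by DESeq2, 50 higher and 24 lower were without overlap.

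Of the 45 genes of the later DAM stage (stage 2), 40 passed the filter on low counts, and 20 of the 40 did not overlap and were higher at 9 months. None was lower without overlap. The median log2 fold change (log2 FC, 9 against 6 months) of the 40 was 0.80 and 37 were above 0, against a median of −0.004 and 49.6% above 0 over all genes, and DESeq2 called 9 of them, all higher. The median was 0.53 without replicate 2 at 6 months. Without replicate 3 at 9 months it was 0.64, with 25 of 39 higher and 1 lower without overlap, beside 9.45% and 9.06% of all genes. Colec12 had passed the filter only through the 9-month libraries, and without a filter 21 of all 45 were higher without overlap, beside 3.13% of all genes (2.85% were lower). In bulk RNA, more cells of a state and more RNA per cell cannot be told apart.

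Lpl (ENSMUSG00000015568) encodes lipoprotein lipase, which releases fatty acids from lipoproteins. It was at 52.3, 40.6, 60.0 and 66.1 CPM in the 4 libraries of 6 months and at 187, 175 and 153 CPM in the 3 libraries of 9 months. The groups were far apart and each was tight, and the fitted log2 FC was 1.65 (SE 0.20, edgeR adjusted p = 0.11, DESeq2 adjusted p = 1.8e-10). Cst7 (ENSMUSG00000068129), the gene of the lysosomal cysteine protease inhibitor cystatin F, stood at 203, 134, 184 and 183 CPM at 6 months and at 419, 407 and 524 CPM at 9 months. All 3 older libraries lay above all 4 younger ones, with a log2 FC of 1.36 (SE 0.17, edgeR adjusted p = 0.12, DESeq2 8.1e-10).

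Apoe (ENSMUSG00000002985), the lipid carrier whose human variants carry the main common genetic risk of Alzheimer's disease, belongs to the earlier DAM stage. Its level was 1930, 2740, 2630 and 3220 CPM at 6 months and 5660, 5190 and 6040 CPM at 9 months. The groups did not overlap, and the log2 FC was 1.1 (SE 0.17, edgeR adjusted p = 0.23, DESeq2 2.1e-06). Lyz2, which encodes lysozyme and may share reads with its near-identical neighbour Lyz1, was at 412 to 737 CPM at 6 months and within a narrow range of 1120 to 1160 CPM at 9 months. Of the 9 genes of the earlier stage, 3 were higher without overlap (Apoe, Lyz2 and Ctsd), and the median log2 FC was 0.11.

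Among the receptors, Clec7a (ENSMUSG00000079293), the beta-glucan receptor dectin-1, was at 79.7, 64.0, 102 and 103 CPM at 6 months and at 217, 207 and 209 CPM at 9 months. The 3 older libraries were nearly identical, and the log2 FC was 1.28 (SE 0.19, edgeR adjusted p = 0.23, DESeq2 2.1e-06). Axl, a receptor tyrosine kinase for phosphatidylserine-bridging ligands, was at 19.0, 9.68, 22.2 and 43.9 CPM against 68.1, 65.4 and 88.0 CPM. The spread at 6 months was wide, and with a log2 FC of 1.64 (SE 0.44) the edgeR adjusted p was 0.69 (DESeq2 0.041). Itgax, which encodes the integrin CD11c, overlapped: it was at 7.01, 7.67, 20 and 38.5 CPM at 6 months and at 29.9, 27.3 and 38.5 CPM at 9 months. The upstream pair stood apart from these genes, with Trem2 at 2260 to 2700 CPM at 6 months and 2200 to 2360 CPM at 9 months (log2 FC −0.09) and Tyrobp at 1110 to 1430 and 1220 to 1430 CPM (0.10), overlapping in both cases.

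Of the secreted factors of the DAM list, Igf1 and Spp1 were at low levels at 6 months. Igf1, the insulin-like growth factor, was at 17.8, 9.23, 23.8 and 24.2 CPM against 9 months at 85.7, 74.7 and 46.3 CPM. Replicate 3 at 9 months was the lowest of the older libraries but still above all younger ones, and the log2 FC was 1.88 (SE 0.37, edgeR adjusted p = 0.50, DESeq2 0.001). Spp1, which encodes the matrix protein osteopontin, was at 26.4, 5.76, 42.5 and 26.9 CPM against 90.6, 69.5 and 59.4 CPM (log2 FC 1.53, SE 0.52, edgeR adjusted p = 0.87). Gpnmb, a transmembrane glycoprotein of lysosome-rich macrophages, was at 0 in 2 of the 4 libraries of 6 months and at 0.668 and 3.77 CPM in the others, against 12.1, 5.59 and 14.1 CPM at 9 months. Cybb, the catalytic subunit of the phagocyte NADPH oxidase, was at 8.95 to 29.3 CPM against 43.7 to 74.8 CPM, and Capg, an actin-capping protein, at 59.1 to 74.8 CPM against 109 to 139 CPM. The 20 genes without overlap thus included products of different compartments, and their levels at 6 months ran from 0 CPM in all 4 libraries (Colec12) to 1010 to 1160 CPM (Ctsl).

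**Figure D1:**
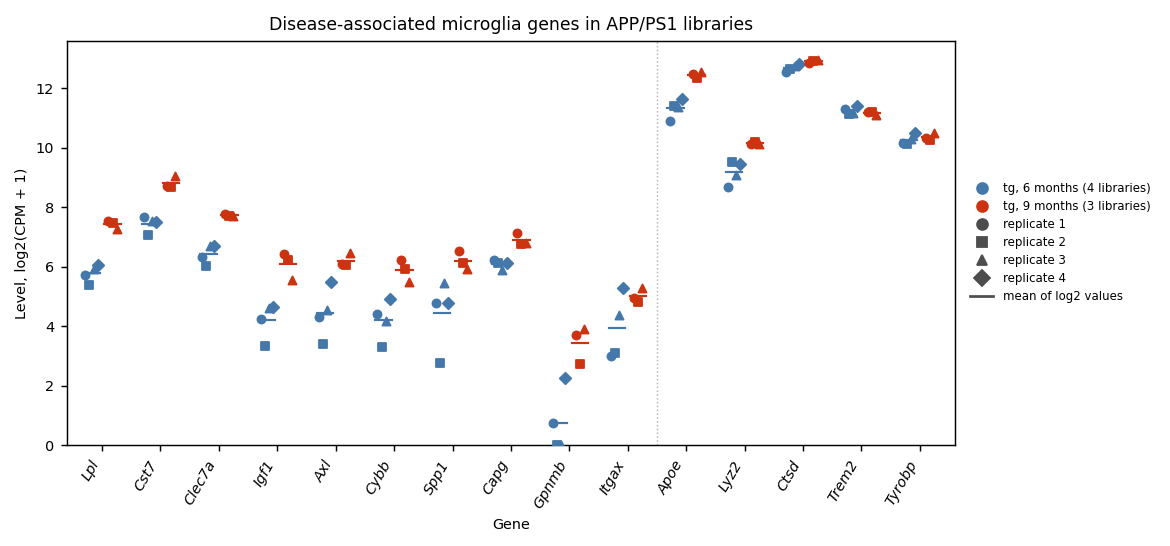
Levels of 10 DAM stage 2 genes (left of the dotted line) and of 5 earlier-stage or upstream genes (right) as log2(CPM + 1), with each point a library, symbols for replicate numbers and bars for the mean of the log2 values. The 9-month libraries (red) lie above all 6-month libraries (blue) for the genes shown except Itgax, Trem2 and Tyrobp.

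Markers of other cell types were read beside these genes, because the gate selects on surface proteins that other myeloid cells carry too. The summed level of the 15 neutrophil genes was 183 to 376 CPM at 6 months and 431 to 608 CPM at 9 months. That of 16 monocyte genes was 17.0 to 37.9 and 40.2 to 56.6 CPM. Neither sum overlapped between the ages, and the part of these genes in the DAM, interferon and other values was not tested. All 6 tested monocyte genes had a log2 FC above 0, but each overlapped between the ages. The defining neutrophil gene Ly6g reached at most 2.86 CPM, Mpo and Elane were at 0 in all 7 libraries, and the monocyte gene Ly6c2 reached at most 2.28 CPM. The summed levels of border-associated macrophage genes (823 to 1059 and 771 to 906 CPM), oligodendrocyte genes (317 to 696 and 408 to 462 CPM) and choroid plexus genes (212 to 1930 and 789 to 995 CPM) overlapped between the ages. Those of neuronal genes did not and were low, at 35.2 to 115 CPM at 6 months and 27.1 to 32.4 CPM at 9 months. The summed level of 19 lymphocyte genes overlapped, at 956 to 1109 and 1076 to 1169 CPM. Within it Ighm was at 896 to 1040 and 1030 to 1090 CPM and Cd79b at 49.8 to 95.5 and 40.1 to 78.6 CPM. The T-cell gene Cd3e reached at most 0.392 CPM and the B-cell gene Cd79a at most 0.906 CPM. Mrc1, the mannose receptor of border-associated macrophages, was at 15.9, 18, 35.5 and 20 CPM against 40.2, 33.8 and 45.0 CPM, with overlap. Maf, which is also on the homeostatic list, held 491 to 615 and 424 to 532 CPM of the border-associated macrophage sum. Cd209f, the only 1 of 17 tested genes of that list higher without overlap, was at 0.64 to 6.29 and 6.75 to 10.9 CPM. In the neutrophil sum Csf3r held 140 to 234 and 238 to 305 CPM.

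**Figure D2:**
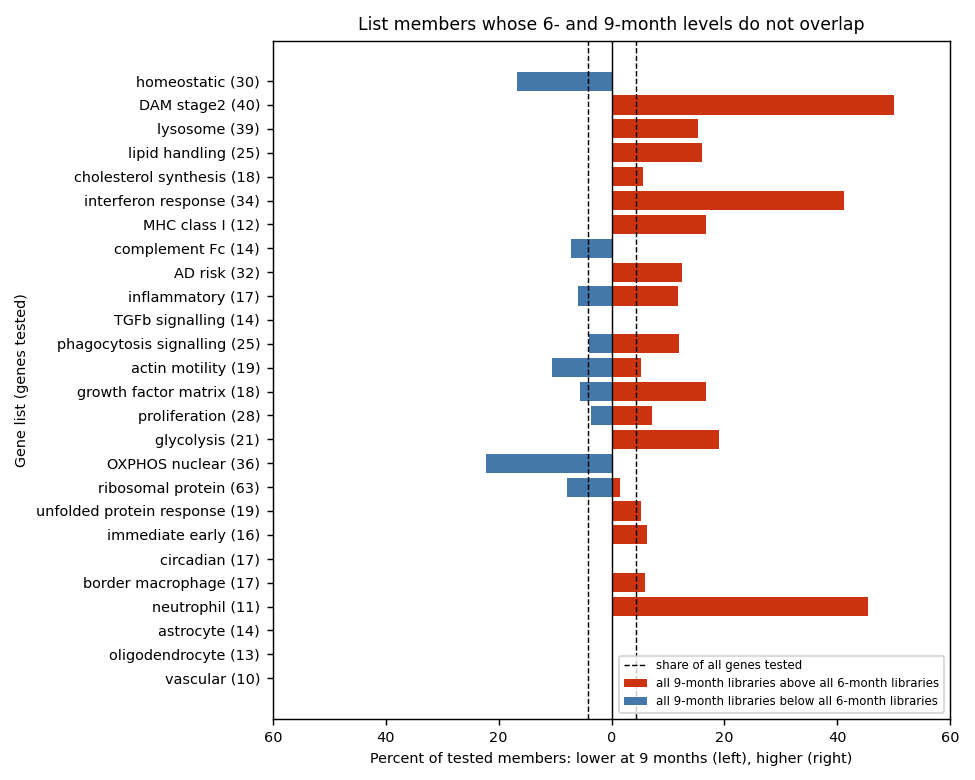
Percent of the tested members of each gene list (number tested in brackets, lists with at least 10) for which all 9-month libraries lie above (red, right) or below (blue, left) all 6-month libraries; dashed lines mark the shares over all genes tested, 4.32% and 4.14%. The bars for DAM stage 2, neutrophil and interferon genes reach farthest to the right, and those for nuclear oxidative phosphorylation (OXPHOS) and homeostatic genes farthest to the left.

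Interferon-induced genes formed the other large group of higher values. Type I interferon signals through a transcription factor complex that includes IRF9 and binds an interferon-stimulated response element in the promoters of its target genes. Of 36 listed genes 34 were tested, 14 of them were higher without overlap and none was lower without overlap. The median log2 FC was 1.28, and 33 of 34 were above 0. The summed level of the list was 660 to 731 CPM at 6 months and 1025, 1001 and 1876 CPM at 9 months, replicate 3 being the highest by far.

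The promoter stretches of 4 of these 14 genes are printed here because they share the core letters of that element. RefSeq promoter sequence (GRCm38.p6) was available for 26 of the 36 genes, and the 250 bases before the annotated start were searched on both strands for GAAANNGAAA, whose reverse complement is TTTCNNTTTC. Capitals mark the matches within the printed stretch. All 4 genes held 2 matches, and in Ddx60 and Ifit3 only the first is printed.
Ddx60, chr8:61928009-61928068, plus strand: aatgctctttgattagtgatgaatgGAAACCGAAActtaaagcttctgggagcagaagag
Ifit1, chr19:34640760-34640819, plus strand: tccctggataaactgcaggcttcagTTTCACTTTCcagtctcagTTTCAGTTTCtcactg
Ifit3, chr19:34583348-34583407, plus strand: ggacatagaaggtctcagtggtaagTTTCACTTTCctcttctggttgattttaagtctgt
Bst2, chr8:71537568-71537627, minus strand: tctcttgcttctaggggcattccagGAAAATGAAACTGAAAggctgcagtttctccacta
The capitals in Bst2 hold a pair of overlapping matches, and the first capital base of the 4 stretches lies 53, 104, 156 and 130 bases before the start, in the order printed. Matches were found in 15 of the 26 interferon genes with a sequence (57.7%), against 936 of 27025 genes (3.46%) and 2.98% of all promoters in the table. Of the 13 such genes whose ages did not overlap, 8 held a match. By comparison 2 of 32 DAM stage 2 genes (Cybb and Spp1) and 0 of 21 homeostatic genes held one. A match is a description of letters and not a shown binding site.

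Ddx60, an interferon-induced helicase, was at 8.01, 8.50, 10.2 and 9.37 CPM at 6 months and at 38.7, 17.6 and 33.6 CPM at 9 months. The 6-month libraries agreed closely, and the log2 FC was 1.73 (SE 0.34, edgeR adjusted p = 0.50, DESeq2 0.0048). Oasl2, of the oligoadenylate synthetase-like family, was at 6.01, 3.38, 8.57 and 0.914 CPM against 33.9, 23.7 and 80.7 CPM (log2 FC 3.29, SE 0.69, edgeR adjusted p = 0.50, DESeq2 0.00064). Ifit2, whose product binds viral RNA and restrains its translation, was at 20.7, 15.6, 22.4 and 6.40 CPM against 33.8, 55.2 and 121 CPM (log2 FC 2.1, SE 0.51, edgeR adjusted p = 0.64, DESeq2 0.01). In both genes replicate 3 at 9 months had the highest level of all 7 libraries.

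Ifit3, which may share reads with its near-identical copy Ifit3b, was at 14.8, 12.4, 21.4 and 13.6 CPM against 34.7, 25.3 and 104 CPM. Its log2 FC was 1.81 (SE 0.48, edgeR adjusted p = 0.68, DESeq2 0.042), and 0.94 without replicate 3 at 9 months. Ifitm3, a membrane protein that blocks viral entry, was at 16.5 to 26.5 CPM at 6 months and at 22.4, 30.0 and 106 CPM at 9 months, and overlapped. Its log2 FC of 1.30 was 0.28 without that library. The median over the list was 0.54 without it, with 29 of 34 genes above 0 and again 14 higher without overlap, where 9.45% of all genes then were. The median was thus above 0 with and without that library, and smaller without it.

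Irf9 itself was at 76.0 to 103 CPM at 6 months and at 117 to 124 CPM at 9 months, without overlap. The classical MHC class I gene H2-D1, also inducible by interferon, was at 501, 706, 579 and 686 CPM against 906, 944 and 856 CPM (log2 FC 0.55, SE 0.14, edgeR adjusted p = 0.68), and H2-K1 at 255 to 324 and 326 to 347 CPM. These paralogs are alike enough that reads may be split between them. Of 12 tested MHC class I genes, 2 were higher without overlap, and of 7 MHC class II genes none differed without overlap in either direction, with the invariant chain gene Cd74 at 471 to 872 and 603 to 777 CPM.

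**Figure D3:**
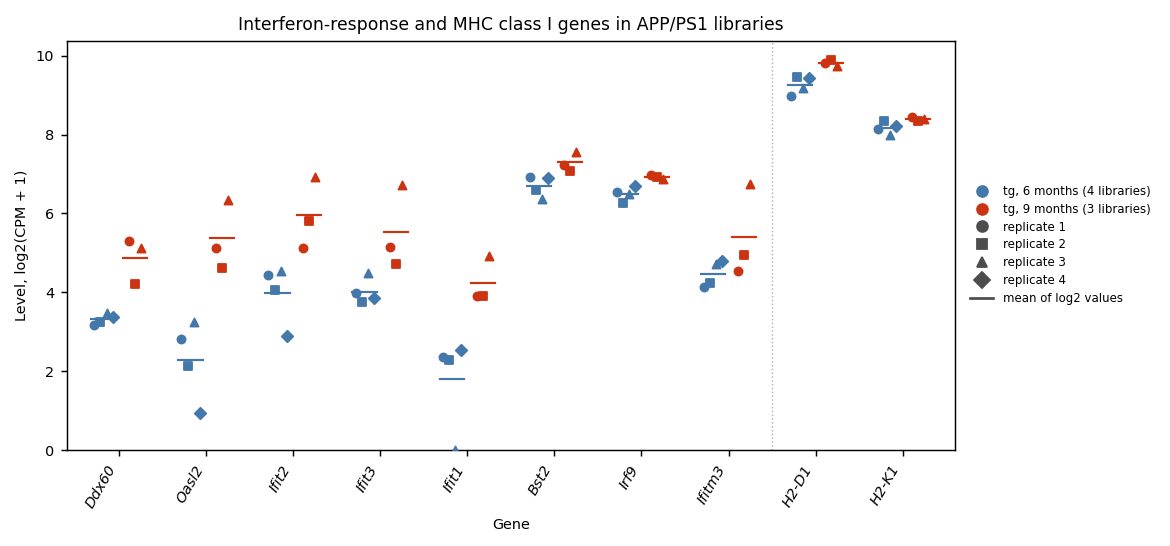
Levels of 8 interferon-response genes and, right of the dotted line, 2 MHC class I genes as log2(CPM + 1), with a point per library and bars for the mean of the log2 values. Replicate 3 of 9 months (red triangle) is the highest library for Oasl2, Ifit2, Ifit3, Ifit1, Bst2 and Ifitm3, and the ages overlap only for Ifitm3.

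Lysosomal genes are placed under the transcription factors TFEB, TFE3 and MITF, which bind E-box letters in their promoters. Of 40 listed genes 39 were tested, 6 were higher without overlap, none was lower without overlap, and 30 had a log2 FC above 0, with a median of 0.13. The median was 0.08 without replicate 3 at 6 months or without replicate 1 at 9 months, and 0.21 without replicate 3 at 9 months. With the low-count replicate 4 of 9 months included in a fit of 8 libraries it was −0.084, with 12 of 39 above 0. The lysosomal hydrolase gene Glb1, beta-galactosidase, was at 81.8, 88.1, 75.9 and 87.3 CPM against 161, 132 and 122 CPM. The tight 6-month group lay wholly below, with a log2 FC of 0.73 (SE 0.16, edgeR adjusted p = 0.50, DESeq2 0.0092). Gusb, beta-glucuronidase, was at 534, 453, 353 and 537 CPM against 818, 758 and 663 CPM (log2 FC 0.67, SE 0.17, edgeR adjusted p = 0.68, DESeq2 0.024). Mitf was at 16.5 to 24.3 CPM against 27.3 to 33.6 CPM. Ctsb was at 5190 to 7010 and 6910 to 9550 CPM (log2 FC 0.44) and Lamp1 at 194 to 287 and 169 to 207 CPM (−0.43), both with overlap. The protease genes Ctsd and Ctsl differed by less, with Ctsd at 6040 to 7160 and 7440 to 7910 CPM (log2 FC 0.23) and Ctsl at 1010 to 1160 and 1270 to 1400 CPM (0.27). Of the 6 genes without overlap, Ctsl and Cd63 are also on the DAM stage 2 list and Ctsd on the earlier-stage list. Without replicate 3 at 9 months, 16 of the list's genes were higher and 1 lower without overlap, beside 9.45% and 9.06% of all genes.

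Of these 6 genes 3 (Glb1, Ctsl and Ctsd) had the E-box letters CACGTG (the same on both strands) in the 250 bases before the start, and the stretches around them are shown because 9 of the 32 lysosomal genes with a sequence held the letters (28.1%), against 6.86% of all genes in the table and 6.02% of all promoters.
Glb1, chr9:114401005-114401060, plus strand: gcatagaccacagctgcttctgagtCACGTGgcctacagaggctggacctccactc
Ctsl, chr13:64370726-64370770, minus strand: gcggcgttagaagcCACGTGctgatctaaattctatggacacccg
Ctsd, chr7:142388042-142388077, minus strand: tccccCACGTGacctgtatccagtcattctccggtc
The letters, of which Ctsd held 2 copies with only the first printed, begin 48, 236 and 245 bases before the start in Glb1, Ctsl and Ctsd. No interferon gene with a sequence (0 of 26) held them, and 3 of 32 DAM stage 2 genes did.

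In the glycolysis list, 4 of 21 genes were higher without overlap and none was lower without overlap. The median log2 FC was 0.115, with 13 genes above 0 and 8 below. With library totals in place of TMM factors, 4 were higher and 1 lower without overlap. Hif1a, the oxygen-regulated transcription factor that is also counted among the DAM genes, was at 141, 101, 141 and 144 CPM against 263, 273 and 166 CPM. Replicate 3 was again the lowest of the older libraries, and the log2 FC was 0.83 (SE 0.21, edgeR adjusted p = 0.68, DESeq2 0.038). Pfkfb3, which makes the activator of phosphofructokinase, was at 75.1, 71.4, 81.2 and 105 CPM against 117, 193 and 148 CPM (log2 FC 0.88, SE 0.22, edgeR adjusted p = 0.64, DESeq2 0.036). The glycolytic enzyme genes Pfkl (134 to 201 and 235 to 291 CPM) and Pkm (172 to 251 and 273 to 299 CPM) did not overlap either.

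Nuclear genes of the respiratory chain and ATP synthase were mostly at lower levels at 9 months. Of 36 tested genes 32 had a log2 FC below 0, the median was −0.29, and 8 were lower without overlap while none was higher without overlap. The summed level was 3756 to 3897 CPM at 6 months and 3338 to 3468 CPM at 9 months, without overlap. Ndufc1, a complex I subunit, was at 46.1, 51.9, 40.2 and 45.5 CPM against 21.0, 30.6 and 32.8 CPM (log2 FC −0.71, SE 0.24, edgeR adjusted p = 0.86). Cox6b1, a subunit of cytochrome c oxidase, was at 162, 153, 160 and 172 CPM against 133, 131 and 129 CPM, with tight groups and a log2 FC of −0.30 (SE 0.13, edgeR adjusted p = 0.87). Ndufa4 was at 88.4 to 129 and 76.2 to 82.9 CPM and Atp5e, the ATP synthase epsilon subunit, at 61.3 to 83.4 and 40.7 to 54.8 CPM. These differences are small, DESeq2 called none of the 36, and with library totals in place of TMM factors 6 were lower and 1 higher without overlap. Without replicate 3 at 9 months the count of lower genes was 18, where 9.06% of all genes were lower. The 7 tested genes encoded in the mitochondrial genome had log2 FC below 0 as well (median −0.26), but the ages overlapped in each, with mt-Co1 at 1020 to 1590 and 1020 to 1110 CPM.

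Most homeostatic genes overlapped between the ages. P2ry12, the purinergic receptor that guides processes to injury, was at 21800, 15600, 10400 and 13900 CPM against 16600, 15600 and 11900 CPM. Tmem119 and Cx3cr1 also overlapped, with log2 FC of −0.13 and 0.18. Of 30 genes 5 were lower without overlap, none was higher without overlap, and the median log2 FC was −0.08. The median ran from −0.163 without replicate 3 at 6 months to −0.028 without replicate 1 at 6 months. Without replicate 3 at 9 months it was −0.041, with 3 genes higher and 7 lower without overlap, beside 9.45% and 9.06% of all genes. Rhob, a small GTPase that responds quickly to stress, was at 541, 616, 411 and 449 CPM against 187, 218 and 280 CPM. It was the lower gene with the smallest adjusted p in the DESeq2 fit, with a log2 FC of −1.15 (SE 0.20, edgeR adjusted p = 0.41, DESeq2 1.8e-05).

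Crybb1, a beta-crystallin gene typical of microglia, was at 312, 373, 396 and 394 CPM against 194, 243 and 242 CPM (log2 FC −0.70, SE 0.15, edgeR adjusted p = 0.50, DESeq2 0.0041). Ltc4s, which makes leukotriene C4, was at 825, 631, 594 and 641 CPM against 469, 426 and 435 CPM (−0.60, SE 0.14, edgeR adjusted p = 0.58, DESeq2 0.011). Cst3, the cystatin C gene and among the most abundant transcripts of microglia, was at 37400 to 44100 and 30700 to 34400 CPM (−0.34), and Olfml3 at 2960 to 3150 and 2590 to 2830 CPM (−0.18). The homeostatic group was thus divided, with the defining receptors at similar levels and a few other members lower.

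**Figure D4:**
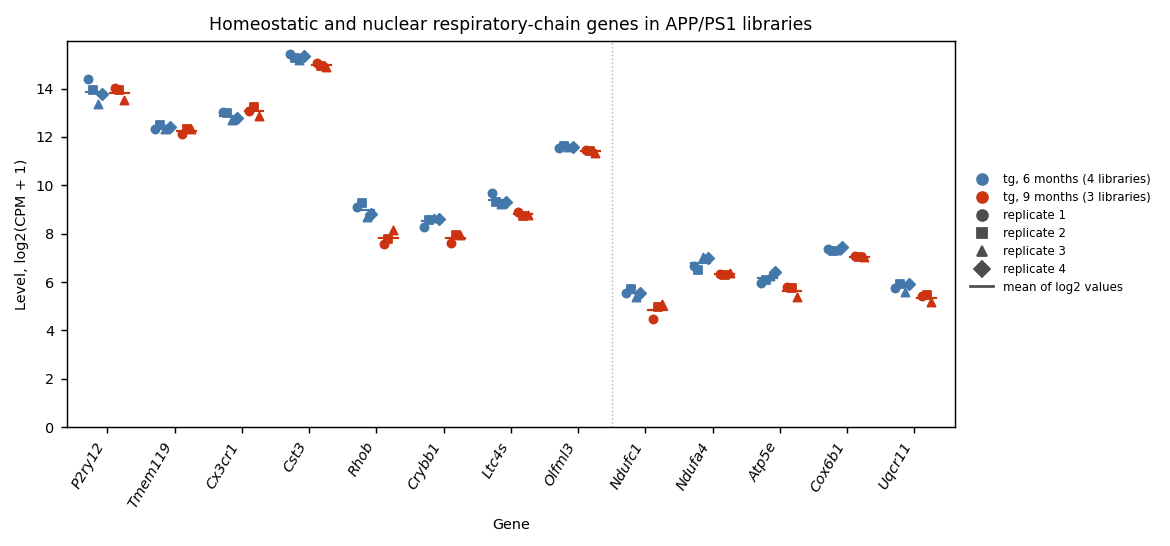
Levels of 8 homeostatic genes and, right of the dotted line, 5 nuclear respiratory-chain and ATP synthase genes as log2(CPM + 1), with a point per library and bars for the mean of the log2 values. The 9-month libraries lie below all 6-month libraries for the genes shown except P2ry12, Tmem119 and Cx3cr1.

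Of 11 tested neutrophil granule and chemotaxis genes, 5 were higher without overlap, and the median log2 FC was 1.72 (1.04 over 10 tested genes without replicate 1 at 9 months). Retnlg, a resistin-like gene of neutrophils, was at 4.45, 3.65, 5.83 and 5.60 CPM against 42.4, 36.5 and 15.6 CPM (log2 FC 2.69, SE 0.42, edgeR adjusted p = 0.24, DESeq2 8.9e-06). S100a8, which encodes a calcium-binding alarmin, was at 16, 14.3, 19.8 and 59.2 CPM against 92.4, 112 and 64.9 CPM. The collagenase gene Mmp8 was at 1.56 CPM in 1 library of 6 months and at 0 in the other 3, and at 14.4, 31.0 and 31.5 CPM at 9 months. By contrast Camp, another granule gene, was at 0.779 to 7.31 and 2.95 to 3.83 CPM, with overlap. Ltf, which is among the 5 and enters the median, had passed the filter only through the 9-month libraries. Without a filter 5 of all 15 listed genes were higher without overlap, beside 3.13% of all genes.

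Of 28 tested genes of cell division, 2 were higher and 1 lower without overlap. Mcm6, a subunit of the replicative helicase, was at 17.2, 20.5, 14.1 and 12 CPM against 58.4, 48.2 and 35.7 CPM (log2 FC 1.57, SE 0.29, edgeR adjusted p = 0.45, DESeq2 0.00096). Mcm2 was at 0 to 9.03 and 13 to 15.2 CPM, and Mcm3 at 37.9 to 82.0 and 74.4 to 90.3 CPM with overlap. The mitotic kinase gene Aurkb was lower, at 2.67 to 10.4 and 0 to 2.19 CPM.

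In the remaining lists the counts of genes without overlap stand beside 4.32% higher and 4.14% lower over all genes. Lipid handling had 4 of 25 higher (16%, Apoe and Lpl among them) and phagocytic signalling 3 of 25 higher (12%) and 1 lower. Growth factor and matrix genes had 3 of 18 higher (16.7%) and 1 lower, and inflammatory genes 2 of 17 higher (11.8%) and 1 lower. These counts are not separate from that of DAM stage 2, because the lists share members that were higher without overlap. Among the shared genes are Lpl (lipid handling), Axl and Clec7a (phagocytic signalling), Igf1 and Gpnmb (growth factor and matrix) and Ccl4 (inflammatory). Of 63 ribosomal protein genes 5 were lower and 1 higher, and of 19 actin and motility genes 2 were lower and 1 higher. Unfolded protein response (1 of 19), immediate early (1 of 16) and border-associated macrophage genes (1 of 17) had 1 higher each, and oligodendrocyte, vascular and choroid plexus genes had none in either direction. Complement and Fc receptor genes (1 of 14 lower without overlap, C1qa), TGF-beta signalling (0 of 14), circadian (0 of 17) and astrocyte genes (0 of 14) had medians between −0.012 and 0.12. Of the orthologues of Alzheimer's risk genes, 4 of 32 (12.5%) were higher without overlap, among them Apoe and the kinase gene Ptk2b (23.1 to 50.3 and 55.4 to 76.6 CPM). Hmgcs1, of sterol synthesis, was at 11.7 to 39.9 and 45.0 to 69.3 CPM, the only one of 18 sterol genes higher without overlap. The endogenous genes App and Prnp overlapped between the ages, with log2 FC of 0.15 and 0.27.

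Gvin-ps7, Fgl2 and Lgals3bp were chosen after their values were seen, because they stood among the smallest p-values. The first of them, a pseudogene of the interferon-inducible giant GTPases whose reads may be shared with near-identical copies, was at 35.8, 35.4, 37.6 and 39.7 CPM against 132, 88.2 and 118 CPM (log2 FC 1.60, SE 0.21, edgeR adjusted p = 0.11, DESeq2 7.5e-10). Fgl2, a fibrinogen-like protein of macrophages, was at 28.1 to 46.2 and 95.9 to 122 CPM (log2 FC 1.55, edgeR adjusted p = 0.23, DESeq2 2.4e-06). Lgals3bp, the galectin-3-binding protein, was at 258, 247, 289 and 382 CPM against 566, 560 and 549 CPM (log2 FC 0.93, edgeR adjusted p = 0.43, DESeq2 0.00025).

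Whether the age difference was larger in APP/PS1 than in control microglia was tested in a fit of 15 libraries with the 8 wt libraries of the same ages. No gene passed in edgeR (0 of 15236, 0%, smallest edgeR adjusted p = 0.89), and 563 (3.7%) had an unadjusted p under 0.05. DESeq2 called 19 (0.125%), many with log2 differences too large to read as sizes, such as Ptgs2 (−41.6), Syt5 (−26.2) and Padi4 (24.2). Those of Mcm6 (1.80), Zfp141 (3.00) and Cd300a (−0.745) were smaller. Without replicate 1 of wt at 9 months edgeR again called 0, with 4.02% at an unadjusted p under 0.05. Leaving out that library turned the direction for Cst7, Clec7a and Igf1, while Lpl and Apoe kept theirs. Cst7 was at 12.5 to 14.4 CPM in wt at 6 months and at 295, 16.1, 30.3 and 11.8 CPM in wt at 9 months, the highest being replicate 1. The difference between the genotypes in the age log2 FC was −1.37 for Cst7 (SE 1.07, edgeR adjusted p = 1), and 0.81 (SE 0.36, unadjusted p = 0.041 in the edgeR fit, adjusted p = 1) without that library. For Clec7a the values were −0.11 and 0.85, for Lpl 1.14 and 1.68, and for Apoe 0.59 and 0.91, each with an edgeR adjusted p of 1. A larger age difference of the DAM genes in tg than in wt was therefore not shown at this spread.

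Other genes gave similar values with and without that library. Mcm6 was at 34.3 to 40.3 CPM in wt at 6 months and at 26.9 to 35.8 CPM in wt at 9 months. The difference of the age log2 FC was 1.79 (SE 0.33, unadjusted p = 5.8e-05, edgeR adjusted p = 0.89, DESeq2 adjusted p = 0.00013) and 1.71 without it, and the tg libraries of 6 months were the group that stood low. Retnlg showed nearly the same age difference in the controls, at 1.58 to 7.64 CPM in wt at 6 months and 11.4 to 27.3 CPM in wt at 9 months, with a log2 FC of 2.64 and a difference between the genotypes of 0.04 (SE 0.74, edgeR adjusted p = 1). The interval is wide, so a like change in both genotypes is a description only. For Crybb1 the difference was −0.62 (SE 0.22, edgeR adjusted p = 1), with wt at 274 to 441 CPM at 6 months and at 277 to 385 CPM at 9 months.

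**Figure D5:**
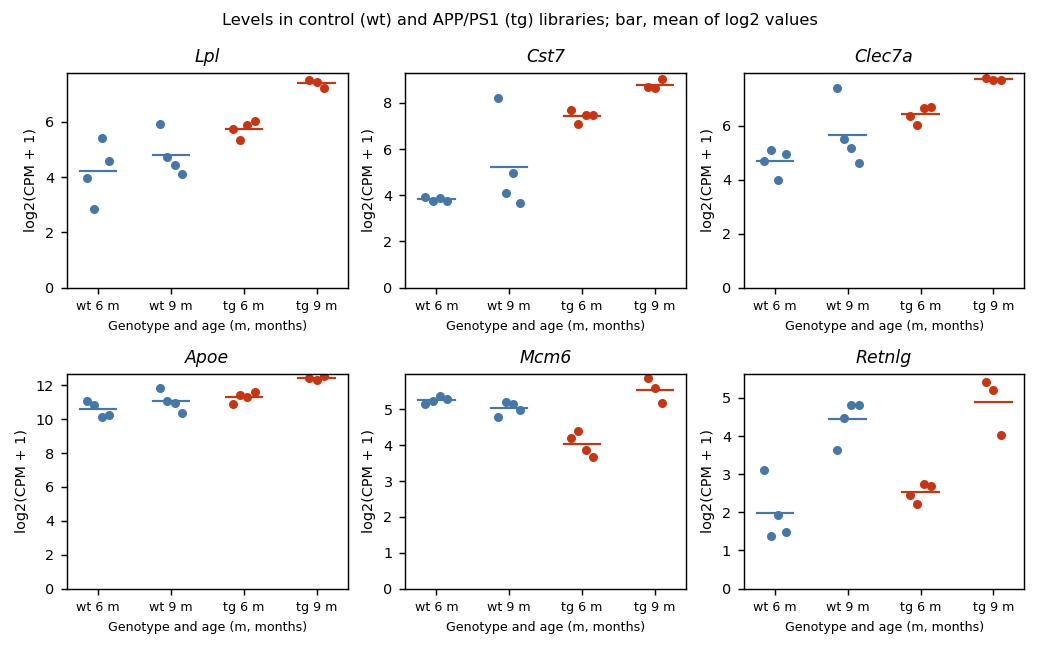
Levels of 6 genes as log2(CPM + 1) in control (wt, blue) and APP/PS1 (tg, red) libraries at 6 and 9 months on the scale of the 15-library fit, with a point per library and bars for the mean of the log2 values. One wt library of 9 months reaches high levels of Cst7 and Clec7a, Mcm6 is lowest in tg at 6 months, and Retnlg is higher at 9 months in both genotypes.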

How the data were processed

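The deposited files are counts per gene, 1 table per library and a series table by symbol that equals their sum by symbol. Per the submitters' processing notes, the tools were HTSeq 0.11.0, TopHat, cutadapt 2.10 and SAMtools 1.10, with FastQC 0.11.9 and Picard 2.13.2, on GRCm39. Strand setting, duplicate handling and annotation release: not given in the sources used here. The 7 libraries were fitted in R 4.3.3 with edgeR 4.0.16 (TMM, robust quasi-likelihood, adjusted p under 0.05, at least 1 CPM in at least 3 libraries); edgeR was also tested on simulated data. Floors of 3 counts cover counting error only. Alternatives included DESeq2 1.42.0, limma-voom (limma 3.58.1), other filters and factors, a replicate block and each library left out. The members, the 35 gene lists and the tests were chosen with earlier results of these data known. Named genes were drawn from the 4 of each list with the smallest p-values, the cell type markers, Trem2, Tyrobp, Apoe and the endogenous transgene-related genes. Not all genes that this rule picks are named. Others (such as Ctsd, Ctsl, Lamp1, Cybb, Colec12, Ifit1, Bst2, Irf9, Ifitm3, Olfml3 and Mcm3) were chosen after their values were seen. Motifs and printed promoters were also chosen then, from RefSeq sequence of GRCm38.p6, another build than that of the counts. Results for some genes are not reported here.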

Additional observations from a re-analysis of the deposited data

Results flagged for a closer look

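In 3 of 56 values tested over the 4 libraries of tg at 6 months, 1 library lay far from the rest, and chance alone marks about 1 in 20 such groups. Hif1a was at 101 CPM in replicate 2, with the others at 141 to 144 CPM. Mmp8 was at 1.56 CPM in replicate 1 and at 0 in the others. S100a8 was at 59.2 CPM in replicate 4, with the others at 14.3 to 19.8 CPM.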

How the results depend on the processing

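The count of genes called by edgeR stayed at 0 in either direction under the other filters with a minimum, RLE factors, library totals, a limit of 0.01, gene IDs and each of the 7 libraries left out. Without a filter 3 were called higher (Lpl, Cst7 and Gvin-ps7), with limma-voom 1 (Lpl), in a fit of 23 libraries 1 (Gvin-ps7) and with DESeq2 50 higher and 25 lower, and for the difference between genotypes DESeq2 called 19; the cause was not tested. Same-numbered libraries correlated at 0.069, 0.034 and 0.076 in their deviations from group means, none above 0.1. Pairs with unlike numbers ran from −0.109 to 0.068. Replicates 1 and 3 at 9 months correlated most with the same-numbered library, and replicate 2 at 9 months with replicate 1 at 6 months (0.068). These values cannot tell whether same-numbered libraries share a batch, and the labels do not say what a number marks. With the number as a replicate block edgeR called 0 genes (503 higher and 285 lower at an unadjusted p under 0.05), and 0 for the difference (572). With the low-count library included (24 or 8 libraries), 3 log2 FC changed sign: Ctsd −0.016 and −0.045, Tyrobp −0.14 and −0.205, Cx3cr1 −0.135 and −0.168. The list medians were then −0.031 and −0.084 for lysosomal and −0.308 and −0.342 for homeostatic genes. With single libraries left out, P2ry12 ran from −0.224 to 0.145 and App from −0.001 to 0.32, and for the difference between genotypes Cst7 from −1.733 to 0.809, Clec7a from −0.396 to 0.849, Igf1 from −1.8 to 3.409 and Retnlg from −0.704 to 0.369. Counts of genes without overlap under leaving out single libraries, and under other factors or no filter, were added after the data were seen: they ran from 18 to 25 for DAM stage 2 (higher), 14 to 20 for interferon (higher) and 6 to 18 for nuclear OXPHOS genes (lower). Over the same settings 3.13% to 9.45% of all genes were higher and 2.8% to 9.06% lower without overlap. The counts of 25 (of 39) and 18 (of 36) came without replicate 3 at 9 months, where the shares of all genes were also highest. Depth limits genes near 1 CPM: 1872 of 13615 tested genes had 0 counts in at least 1 library.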
